A study of Bubalus bubalis with 36 samples.

Results

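Omental fat (OAT), which hangs inside the peritoneal cavity, was compared with perirenal fat (PRAT), which lies behind the peritoneum around the kidney, in the same 6 water buffaloes (Bubalus bubalis). The comparison used 6 omental and 6 perirenal libraries out of 36 small RNA libraries in the series, chosen by the depot in the sample titles and paired by the buffalo number. All 1682 rows of the count table that carry a name were considered. Of these, 695 have the name of a bovine miRNA and 987 are candidate loci listed under an identifier without a miRNA name. The animals had been weaned at 3 months, were fattened from the age of 15 months and were killed when 20 months old. No treatment, genotype, breed or sex is given for them in the labels, and the same rearing was shared by both depots. The other 24 libraries came from back (BSAT), sternal (SSAT), inguinal (IAT) and pericardial (PCAT) fat of the same animals. They entered the same fit and shared in the filter, the scaling, the animal terms and the estimate of spread. The fitted fold changes therefore do not rest on the 12 libraries alone.

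MicroRNAs (miRNAs) are short RNAs that lower the output of messenger RNAs to which they pair. Some miRNA genes lie inside the HOX clusters, the gene groups that give cells their position along the body axis, and their products keep differing between body regions in adult tissue. In human and mouse miR-196b lies in the HOXA cluster, miR-196a in HOXB and HOXC, miR-10a in HOXB, miR-10b in HOXD and miR-615 in HOXC. Omental fat is covered by mesothelium and carries clusters of leukocytes, whereas perirenal fat is known for brown fat cells in young animals. The samples were pieces of whole tissue, so a lower level can mean fewer cells of a type or less RNA per cell, and these cannot be told apart.

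The 12 libraries held 9484589 to 13704623 counts. Omental libraries averaged 12196273 ± 647752 counts and perirenal libraries 12066244 ± 1418612 counts (SD, n = 6 each). Between 891 and 1052 features were detected in an omental library and between 896 and 1042 in a perirenal one. Levels are given as CPM, counts scaled to a library total of 1000000 after correction of the totals by TMM factors. The median correlation between libraries (log2 CPM over the tested features) was 0.926 within omental fat, 0.937 within perirenal fat and 0.927 between them, and 0.940 for both depots of 1 animal. Every pair of libraries differed by more than sampling noise (chi-square per degree of freedom of at least 788). Omental libraries varied more: the median SD of log2 CPM was 1.01 in omental and 0.838 in perirenal fat, and the SD was larger in omental fat for 439 of 667 features. Library OAT2 (omental, animal 2) and libraries PRAT2 and PRAT6 (perirenal, animals 2 and 6) stood apart in several miRNAs described below. The spread of each depot was not computed without them. Values without these 3 libraries are given beside the called miRNAs, the miRNAs named for such a library and the lists whose median moved most. The depot of each library rests on the labels, and a miRNA table holds no messenger RNA of fat cells by which to check it.

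Few miRNAs were called between the depots, and all those called were HOX-cluster miRNAs that were lower in omental fat. miR-196b and miR-196a, a closely related pair that represses HOX messenger RNAs, were lower in every omental library than in any perirenal one. Their fitted log2 fold changes were −6.0 and −5.70 with the animal as a block, and −4.93 and −4.78 without it. miR-10b was lower too, though it was plentiful in both. No feature was called higher in omental fat. In edgeR's quasi-likelihood test with the animal as a block, 3 of 667 features tested had a Benjamini-Hochberg adjusted p under 0.05 (0.45% of features). Of these, 0 were higher (0%) and 3 lower in omental fat. DESeq2 called 3 features and limma 3, with 0 higher in either. Without adjustment, 35 features had p under 0.05, 16 higher and 19 lower. The median log2 fold change (omental over perirenal) over all tested features was 0.03.

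**Figure D1:**
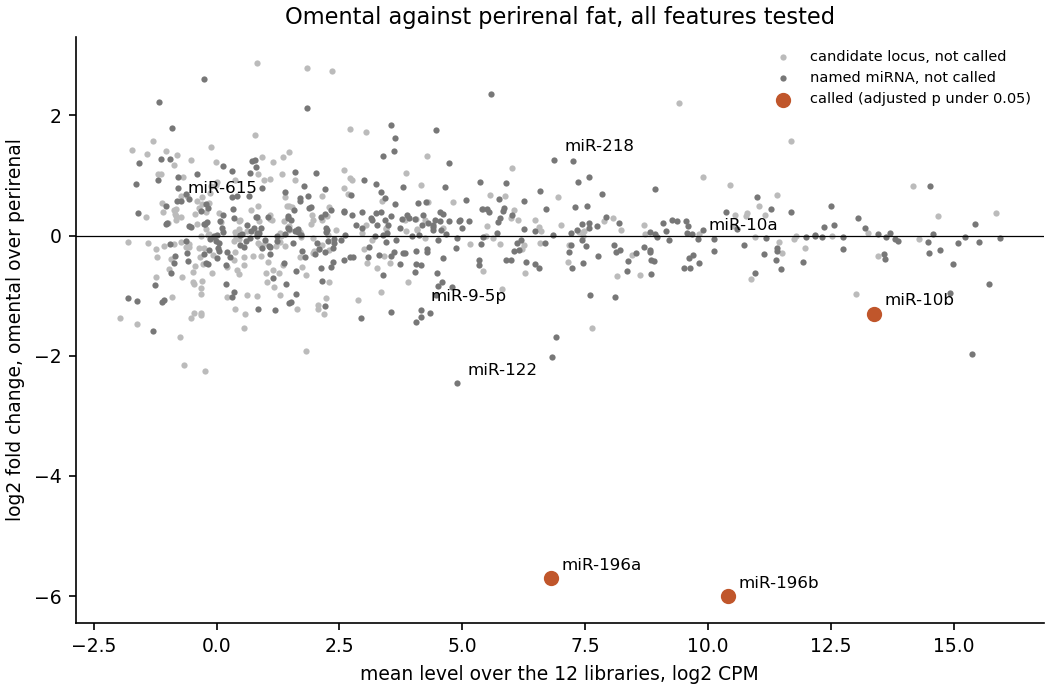
Log2 fold change of omental over perirenal fat (vertical axis) against the mean level over the 12 libraries in log2 CPM (horizontal axis) for the 667 tested features. Large points are the 3 called miRNAs, with miR-196b at −6.0, miR-196a at −5.70 and miR-10b at −1.30. Small points are features that were not called, named miRNAs in dark and candidate loci in light grey.

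miR-196b had a lowest level of 5.48 CPM, a median of 15.7 CPM and a highest of 401 CPM in omental libraries, against 1532, 2354 and 4876 CPM in perirenal libraries. All 6 omental values lay below all 6 perirenal values, and the highest omental value came from animal 2. The mean was 85.9 ± 156 CPM in omental and 2629 ± 1198 CPM in perirenal fat (SD, n = 6 each). The fitted log2 fold change was −6.0 ± 0.73 (SE; 95% interval −7.49 to −4.51; adjusted p = 2.62e-06, edgeR), and miR-196b was lower in 6 of 6 animals. Within an animal the log2 difference was −7.73 in animal 1, −2.79 in animal 2, −6.73 in animal 3, −7.26 in animal 4, −8.38 in animal 5 and −6.15 in animal 6. Animal 2 therefore had the smallest difference and the others lay at −6.15 or below. Without library OAT2 the fitted value was −6.90, and −6.91 without OAT2, PRAT2 and PRAT6.

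miR-196a was at 0.533 CPM in the lowest omental library, with a median of 3.13 and a highest of 34.9 CPM, against 139, 212 and 369.1 CPM in perirenal libraries. The groups again did not overlap, and animal 2 again gave the highest omental value. Over all 667 features, 2 (0.3%) had groups that did not overlap in CPM, and these were miR-196b and miR-196a. The mean of miR-196a was 7.82 ± 13.3 CPM in omental and 216.02 ± 84.0 CPM in perirenal fat. The log2 fold change was −5.70 ± 0.78 (95% interval −7.30 to −4.10; adjusted p = 1.47e-05, edgeR), lower in 6 of 6 animals, and −6.72 without OAT2. The counts behind the omental values were low in places: 7 reads in animal 6 and 21 to 42 reads in animals 1, 3, 4 and 5, against 1974 to 3390 reads in perirenal libraries. Both miR-196 calls rest on the pairing or on the fit shared with the other depots. Fitted on the 12 libraries alone without the animal block, miR-196b was at −4.94 (adjusted p = 0.103, edgeR) and miR-196a at −4.78 (adjusted p = 0.0779).

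Reads of miR-196a and miR-196b can be divided between the 2 names by the counting, so each value alone is uncertain. The sum of the pair was 93.7 ± 169 CPM in omental and 2845 ± 1269 CPM in perirenal fat, a log2 fold change of −5.98 ± 0.70 (adjusted p = 1.33e-06, edgeR). miR-196a made up 0.771% to 26.7% of the sum in omental and 4.82% to 10.6% in perirenal libraries. On the log2 scale the ratio of miR-196b to miR-196a was 2.95 ± 1.96 in omental and 3.58 ± 0.42 in perirenal fat. Its paired difference of −0.63 ± 1.78 was smaller than its spread between animals (exact paired permutation test, two-sided, p = 0.40625, n = 6).

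miR-10b ran from 2565 CPM over a median of 5953 CPM to 10398 CPM in omental libraries, against 8588, 14542 and 23024 CPM in perirenal libraries. The groups overlapped: the omental library of animal 1 lay above the perirenal libraries of animals 3 and 6, although within each animal the omental value was the lower one. The mean was 6180 ± 2638 CPM in omental and 15144 ± 5752 CPM in perirenal fat. The log2 fold change was −1.30 ± 0.26 (95% interval −1.82 to −0.77; adjusted p = 0.00452, edgeR), lower in 6 of 6 animals. Paired log2 differences ran from −2.29 in animal 2 to −0.51 in animal 3. The call of miR-10b was lost in the fit of the 12 libraries alone, with the block (−1.32, adjusted p = 0.160) and without it (−1.27, adjusted p = 0.516, edgeR). With all depots it was lost without library OAT6 (−1.23, adjusted p = 0.0602), without PRAT1 (−1.18, adjusted p = 0.0881) or without PRAT4 (−1.17, adjusted p = 0.0835), and held without OAT2, PRAT2 and PRAT6 (−1.25, adjusted p = 0.0221).

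The other tested HOX-cluster miRNAs were not called. miR-10a, which differs from miR-10b by little in sequence, lay between 275 and 1383 CPM in omental and between 387 and 1383 CPM in perirenal libraries, with medians of 978 and 885 CPM. Its groups covered nearly the same range. The log2 fold change was −0.05 ± 0.32, with a 95% interval from −0.70 to 0.59, so a fold change as large as that of miR-10b lies outside it. It was higher in 2 and lower in 4 of 6 animals, and without the block the fitted sign turned (0.0057). The log2 ratio of miR-10b to miR-10a was 2.95 ± 0.61 in omental and 4.13 ± 0.29 in perirenal fat, lower in 5 of 6 animals. This paired difference of −1.19 ± 0.78 had p = 0.0625 (exact paired permutation test, two-sided, n = 6) and 0.125 after Benjamini-Hochberg adjustment over the 2 ratios tested. Reads of miR-10a and miR-10b can also be divided between the 2 names by the counting, and their sum was not fitted. miR-615 stayed at or below 1.64 CPM in every library, with 2 to 19 reads in omental and 0 to 20 reads in perirenal libraries. Its log2 fold change of 0.58 ± 0.72 (adjusted p = 0.896, edgeR) has an interval of −0.89 to 2.04.

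**Figure D2:**
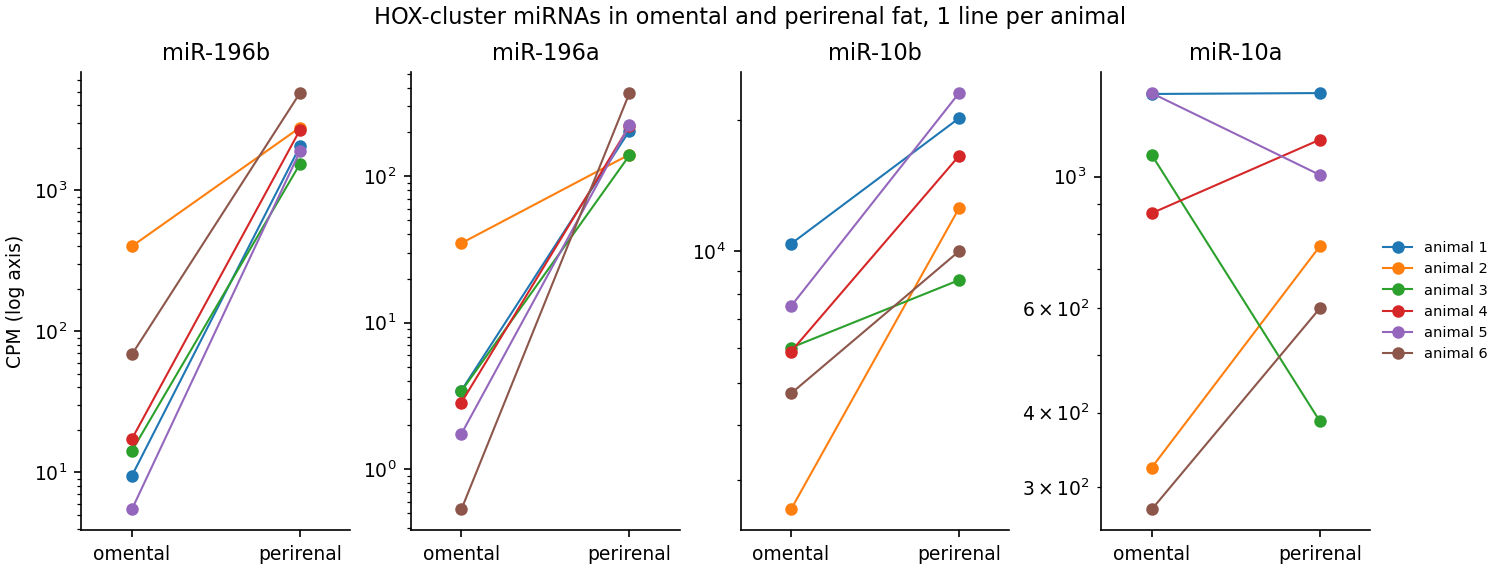
CPM on a log axis in omental (left) and perirenal fat (right) for miR-196b, miR-196a, miR-10b and miR-10a. Each line joins both libraries of 1 animal. The lines of miR-196b, miR-196a and miR-10b run upward to perirenal fat in all 6 animals, with animal 2 the flattest for the miR-196 pair, while those of miR-10a cross.

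The other depots show where these levels lie. By mean log2 CPM both miR-196b and miR-196a followed the order inguinal, perirenal, back, sternal, omental, pericardial. miR-196b averaged 1181 ± 1003 CPM in sternal fat and 14.9 ± 11.1 CPM in pericardial fat (SD, n = 6 each). The pericardial libraries, at 6.36 to 36.4 CPM, lay inside the omental range of 5.48 to 401 CPM, so omental and pericardial fat do not separate beyond their spread. The perirenal range lay inside the inguinal range of miR-196b but for its lowest library: inguinal values ran from 1627 to 5810 CPM and perirenal values from 1532 to 4876 CPM. For miR-196a 5 omental libraries lay below all sternal ones (8.96 to 26.2 CPM), and that of animal 2, at 34.9 CPM, lay above them. The pericardial libraries held 0.0703 to 1.84 CPM of miR-196a, and 4 of 6 omental libraries lay above all of them. The order of miR-10b was perirenal, sternal, back, inguinal, omental, pericardial. In pericardial fat it averaged 1916 ± 631 CPM and reached at most 2397 CPM, below each omental library. The order of miR-10a was sternal, perirenal, omental, back, inguinal, pericardial, so omental fat stood in the middle there.

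**Figure D3:**
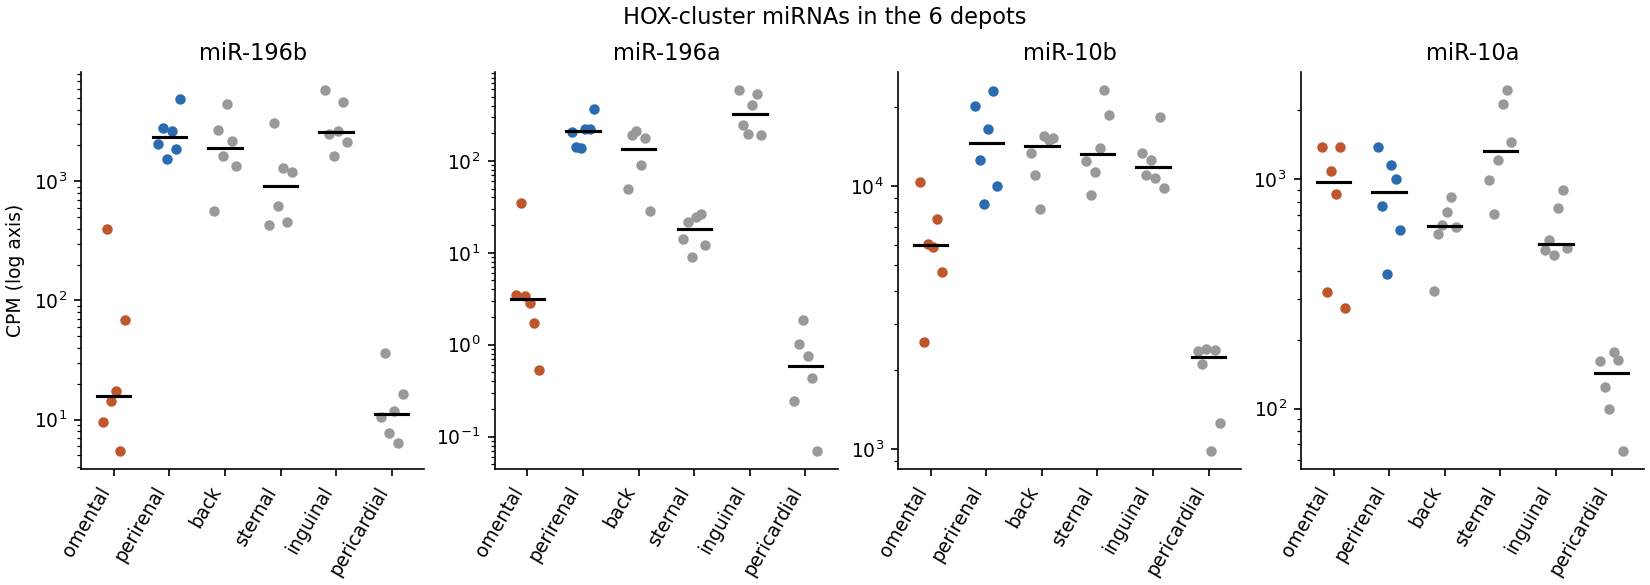
CPM on a log axis in each of 6 libraries per depot for miR-196b, miR-196a, miR-10b and miR-10a. Points are libraries and bars are medians, with omental fat first, perirenal fat second and the other depots in grey. Omental libraries of miR-196b cover the pericardial range of 6.36 to 36.4 CPM, while for miR-196a and miR-10b most or all of them lie above the pericardial ones.

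Set beside the other pairs of depots in the same fit, the 3 calls were few. Omental and perirenal fat ranked 4th from the lowest of 15 pairs. The other 14 ran from 0 calls (back over inguinal, 0%) to 90 (sternal over pericardial, 13.5%). Omental fat differed in 6 features from inguinal (0.9%), in 15 from back (2.25%), in 24 from pericardial (3.6%) and in 37 from sternal fat (5.55%). Perirenal fat differed in 1 from inguinal (0.15%), in 12 from back (1.8%), in 26 from pericardial (3.9%) and in 47 from sternal fat (7.05%). These pairs share libraries and are given side by side.

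Outside the HOX clusters, miR-218 and miR-9-5p had the smallest p-values among the listed miRNAs and were not called. miR-218, which in mammals is made from introns of the SLIT genes, had 78.9, 180 and 261 CPM as its lowest, median and highest omental values, against 42.8, 65.4 and 86.4 CPM in perirenal libraries. Its ranges touched only at their ends, and the omental value was the higher one in 6 of 6 animals (log2 fold change 1.27 ± 0.43; 95% interval 0.38 to 2.15; adjusted p = 0.688, edgeR). miR-9-5p, best known from neural tissue, had 4.39, 10.2 and 20.6 CPM in omental libraries, against 14.6, 22.5 and 42.0 CPM in perirenal libraries. It was lower in 6 of 6 animals with overlapping ranges (−1.23 ± 0.42; adjusted p = 0.688, edgeR). Over all features 19 (2.85%) had the same direction in all 6 animals, 7 higher and 12 lower. Exact paired permutation tests over the 50 miRNAs chosen for naming gave the smallest possible p, 0.03125, for 6 of them: miR-196b, miR-196a, miR-10b, miR-122, miR-9-5p and miR-218. After Benjamini-Hochberg adjustment over the 50 that p is 0.26. These tests decide nothing further, since the smallest p only restates that all 6 animals went in 1 direction. The 50 were also partly chosen by their p in the same data. An adjusted p under 0.05 was out of reach unless most of the 50 had the smallest p.

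miRNAs that mark other cell types were compared next, since omental and perirenal fat adjoin different organs. None of the 11 lists held a called member in edgeR, DESeq2 or limma. Epithelial and mesothelial miRNAs, the miR-200 family and relatives, had a summed level of 7.72, 50.6 and 539.4 CPM (lowest, median, highest) in omental and 15.5, 106.5 and 2816 CPM in perirenal libraries. The highest sums came from animal 2 in both depots. All 5 tested members had a negative log2 fold change, with a median of −1.36, and 1 of 5 had an unadjusted p under 0.05. This was miR-200c, which holds cells in an epithelial state, at 7.76 ± 6.69 CPM in omental and 25.4 ± 40.3 CPM in perirenal fat (−1.43 ± 0.55, adjusted p = 0.700, edgeR). PRAT2 alone held 107.02 CPM of it, and the log2 fold change was −0.49 without PRAT2 and −0.85 without the 3 libraries, as was then the median of the list. Multiciliated-cell miRNAs had 2 tested members, both positive, with a median of 1.92 and 1 at an unadjusted p under 0.05. This was miR-449b, with only 0 to 83 reads in omental and 0 to 4 reads in perirenal libraries. The sum of the list ran from 25.5 over 47.1 to 967 CPM in omental and from 43.8 over 62.3 to 100 CPM in perirenal libraries. The omental libraries of animals 2 and 4 were the high ones: miR-449a stood at 962 and 328.8 CPM there and at 25.5 to 56.6 CPM in the other 4. Within animals miR-449a was higher in omental fat in 2 and lower in 4. Without the 3 libraries its log2 fold change was 0.14, against 1.25 ± 0.62 with them, and the median of the list was 1.06. miR-449c was at 0 in all 12 libraries, the only member of these 11 lists of which that was true.

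Kidney and gut epithelial miRNAs had sums of 512, 935 and 1078 CPM in omental and 980, 1203 and 1946 CPM in perirenal libraries. Of 5 tested members 4 were negative (median −0.54), 2 with an unadjusted p under 0.05. miR-194, made with miR-192 in the epithelium of gut, liver and kidney, averaged 197 ± 114 CPM in omental and 352 ± 86.6 CPM in perirenal fat (−1.01 ± 0.38, adjusted p = 0.688, edgeR), lower in 5 of 6 animals. miR-192 averaged 653 ± 160 CPM in omental and 921 ± 302 CPM in perirenal fat (−0.54 ± 0.25, adjusted p = 0.825, edgeR). Without the 3 libraries miR-194 was at −0.58 and miR-192 at −0.16. In the liver and pancreas list 2 of 5 members were tested, both negative (median −1.88), 1 of them with an unadjusted p under 0.05. miR-122, the main miRNA of liver cells, had 0.0861, 0.423 and 29.8 CPM in omental and 1.21, 3.82 and 283 CPM in perirenal libraries, lower in 6 of 6 animals (−2.46 ± 1.10, adjusted p = 0.825, edgeR). Animal 6 was highest in both depots, and the value was −1.67 without PRAT6, −3.51 without OAT5 and −1.56 without the 3 libraries. Omental reads of miR-122 were as few as 1, 7, 5 and 3 in animals 1 to 4. Perirenal reads in these animals were 51, 57, 19 and 30. The other tested member, miR-375, best known from pancreatic islets, averaged 26.7 ± 36.8 CPM in omental and 14.1 ± 17.9 CPM in perirenal fat, higher in 3 and lower in 3 animals. Its fitted value of −1.29 ± 1.42 goes against those means and was positive without the block (0.92), in letter B (0.52), without animal 1 (0.12) and without PRAT1 (0.074), so the median of this list gives no direction. Fitted on the 12 libraries alone with the animal as a block, miR-122 was called (−2.89, adjusted p = 0.0421).

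Leukocyte miRNAs summed to 4270, 9566 and 48417 CPM in omental and 5635, 10738 and 27624 CPM in perirenal libraries, with the omental library of animal 6 at the top. Of 8 tested members 6 were positive, with a median of 0.33, but without the 3 libraries 7 of 8 were negative and the median was −0.48. Erythroid miRNAs summed to 17231, 35109 and 82939 CPM in omental and 38854, 66161 and 93269 CPM in perirenal libraries, and all 3 members were negative (median −0.60). miR-451, the main miRNA of red blood cells, averaged 41597 ± 23566 CPM in omental and 66004 ± 21549 CPM in perirenal fat, lower in 5 of 6 animals. Its log2 fold change of −0.80 ± 0.39 had an unadjusted p under 0.05 and an adjusted p of 0.825 (edgeR). Endothelial miR-126 in its 2 arms had a median of −0.10; miR-126-3p averaged 20712 ± 4252 CPM in omental and 25304 ± 6821 CPM in perirenal fat, with an interval of −0.74 to 0.15. Of smooth muscle miRNAs both were negative (median −0.37, and 0.30 without the 3 libraries), of stromal miRNAs 3 of 4 were positive (0.13), of skeletal and cardiac muscle miRNAs 4 of 6 (0.17) and of neural miRNAs 4 of 11 (−0.24). Without the 3 libraries these last medians were 0.36, 0.51 and −0.45. The muscle sum reached 1296 CPM in perirenal library 6, against 50.8 to 397 CPM in omental and 55.3 to 120 CPM in the other perirenal libraries. The part of these cell types in the HOX-cluster result was not tested. Without OAT2, PRAT2 and PRAT6 miR-196b was at −6.91 and miR-196a at −6.22.

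**Figure D4:**
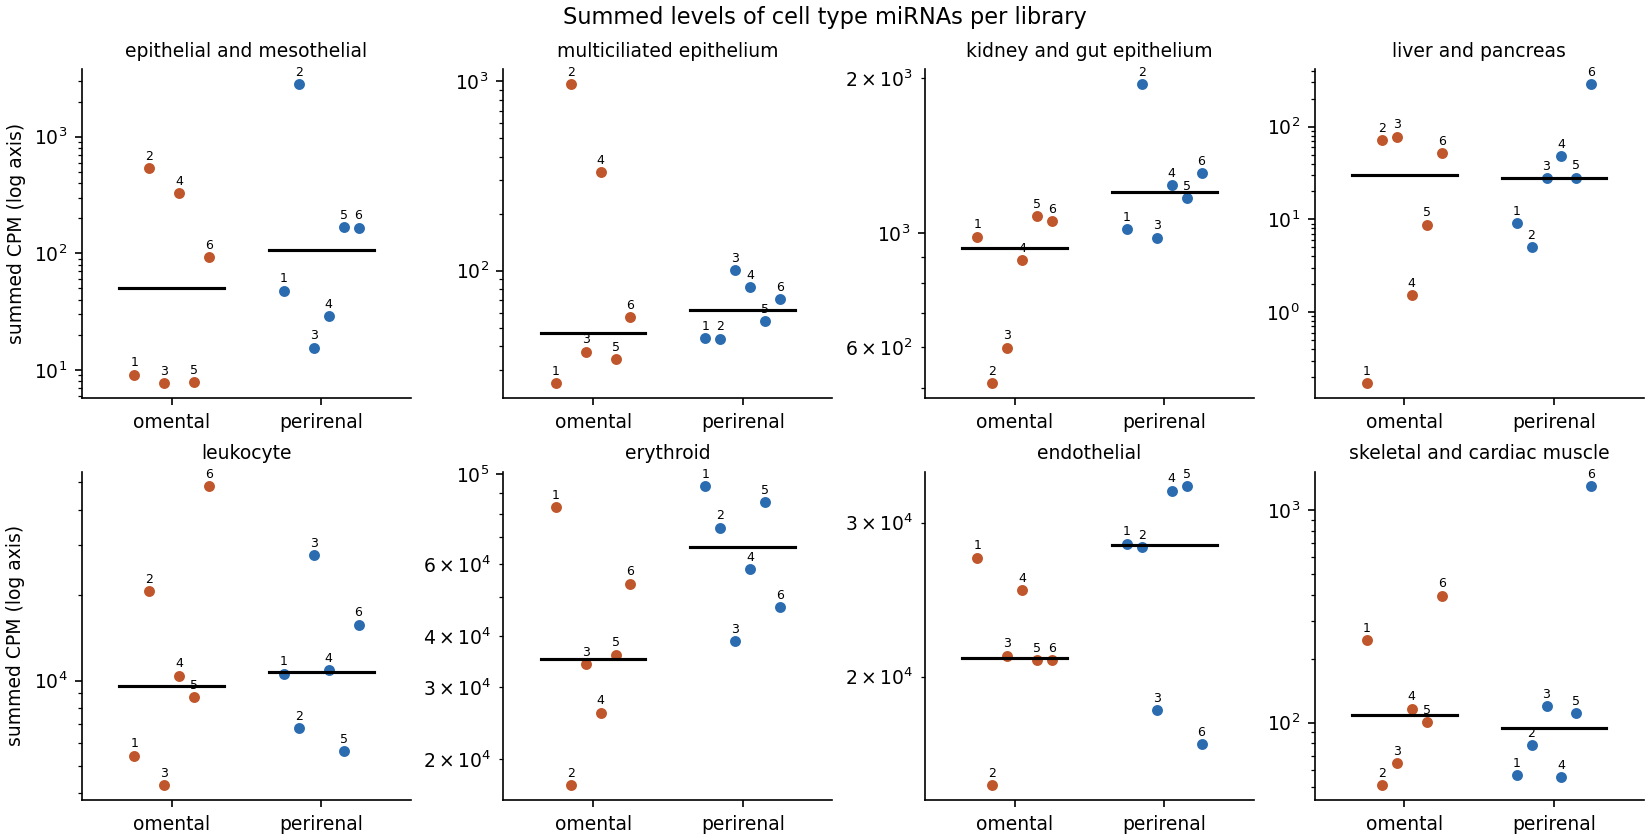
Summed CPM on a log axis of 8 lists of cell type miRNAs in omental (left) and perirenal (right) libraries, with bars at the medians and animal numbers beside the points. The epithelial sum is highest in animal 2 in both depots, the multiciliated sum in omental animals 2 and 4, and the muscle sum in perirenal animal 6.

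Among miRNAs tied to fat cell biology 1 was called. Of 20 tested miRNAs reported for brown and beige fat, 0 were higher and 1 was lower in omental fat, beside 3 of 667 (0.45%) called over all features. The lower one was miR-196a, which promotes browning in mouse and is also counted in the HOX-cluster list. The median of this list was −0.12. Of 21 miRNAs reported to promote fat cell formation none was called (median −0.09), nor was any of 14 reported to hold it back (median 0.20, and 0.08 without the 3 libraries), and none in these 2 lists had an unadjusted p under 0.05. miR-210, a miRNA induced by low oxygen, was at 2.57 ± 3.02 CPM in omental and 0.936 ± 0.510 CPM in perirenal fat, with medians of 1.76 and 1.02 CPM. The omental library of animal 2 alone held 8.59 CPM, and the log2 fold change was 0.64 without the 3 libraries, against 1.15 ± 0.57 with them. miR-31 averaged 46.1 ± 21.2 CPM in omental and 35.6 ± 40.4 CPM in perirenal fat (0.89 ± 0.59, adjusted p = 0.886, edgeR).

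Among clusters and families, the imprinted DLK1-DIO3 cluster, whose miRNAs are read from the maternal chromosome in human and mouse, had 33 of 39 tested members on the omental side of 0 with a median of 0.32 (0.53 without the 3 libraries), against 355 of 667 and 0.03 over all features. None was called, and 2 had an unadjusted p under 0.05. miR-127 had 10108, 26851 and 54998 CPM in omental and 9550, 16752 and 26146 CPM in perirenal libraries, higher in 5 of 6 animals (0.82 ± 0.39; interval 0.02 to 1.63; adjusted p = 0.825, edgeR). miR-370 averaged 14.7 ± 17.2 CPM in omental and 6.29 ± 8.56 CPM in perirenal fat (1.32 ± 0.58). The members are known to be transcribed together in human and mouse, so they do not vary independently. In the miR-424 and miR-503 cluster all 6 tested members were negative, with a median of −0.69 and none called. Without the 3 libraries 2 were negative and 4 positive, with a median of 0.02. The sum of this cluster was highest in PRAT2, where miR-542-5p reached 130.02 CPM, against 28.5 CPM in the next perirenal library. Its log2 fold change was −0.34 without the 3 libraries, against −0.98 ± 0.53 with them. None was called among 14 members of miR-17-92 and its paralogues (median 0.21), 8 of the miR-23, miR-27 and miR-24 clusters (0.04), miR-221 and miR-222 (0.79), 5 of the miR-29 family (−0.12), 6 of the miR-30 family (−0.13) and 9 of the let-7 family (−0.11). Without the 3 libraries the median was −0.08 for miR-17-92 and its paralogues, 0.18 for miR-221 and miR-222 and 0.06 for the miR-30 family.

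**Figure D5:**
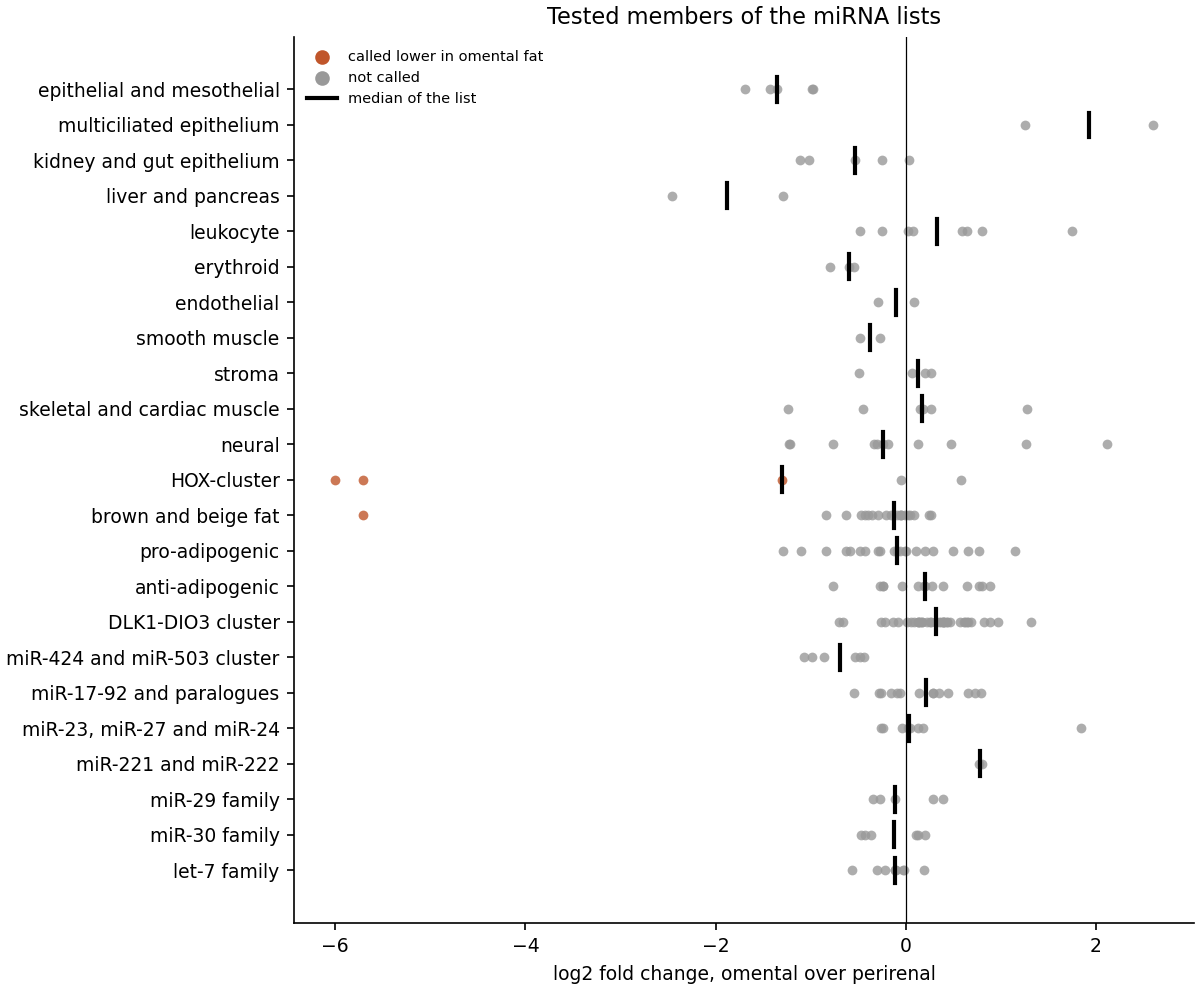
Log2 fold change of omental over perirenal fat for each tested member of 23 miRNA lists, 1 row per list, with a bar at the median of the list. The called members, in colour, are miR-196b, miR-196a and miR-10b in the HOX-cluster row and miR-196a again in the brown and beige fat row.

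The most abundant miRNAs were also not called. let-7f averaged 45386 ± 15239 CPM in omental and 47684 ± 12318 CPM in perirenal fat, and its log2 fold change of −0.11 ± 0.20 had an interval of −0.51 to 0.29. let-7c differed by 0.19 ± 0.30 (interval −0.41 to 0.80). miR-26a and miR-26c traded shares between libraries and are not read singly here. Their sequences were not compared, and the cause of the trade was not tested. miR-26a took 90.2% to 97.3% of their summed counts in 7 libraries and 4.95% to 17.8% in 5. The high share was seen in 4 omental and 3 perirenal libraries and the low share in 2 omental and 3 perirenal libraries. Their sum was 102026 ± 29452 CPM in omental and 107262 ± 21128 CPM in perirenal fat (−0.09 ± 0.19, adjusted p = 0.961, edgeR).

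How far the absence of other calls can be read depends on the level. The 95% interval lay within a 2-fold change either way for 160 of 667 features (23.99%). Among the 74 features with at least 1000 CPM this held for 39 (52.7%), with a median half-width of 0.67 on the log2 scale. From 10 to 1000 CPM it held for 86 of 225 (38.2%), and under 10 CPM for 35 of 368 (9.51%). For most features under 10 CPM the interval therefore took in differences of more than 2-fold. Of 29 precursors with both arms tested, 18 had both arms on the same side of 0 and no arm was called.

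The library names carry a letter A or B between the depot name and a number, and the labels do not explain this letter. Letter A stands on 2 omental and 3 perirenal libraries of the 12, and both depots share the letter in 3 of 6 animals. With the letter as a covariate the same 3 miRNAs were called. The fit of letter B alone took the letter B libraries of all 6 depots, of which 4 were omental and 3 perirenal. Only animals 3 and 5 had both of the compared depots in it. In this fit miR-196b was at −6.61 (adjusted p = 0.00121, edgeR) and miR-196a at −5.73 (adjusted p = 0.00535). miR-10b at −1.0 was not called (adjusted p = 0.423, edgeR). Within letter A only animal 4 had both depots, so no paired fit was made. There miR-196b stood at 17.3 and 68.6 CPM in the 2 omental libraries, against 2039, 2777 and 2668 CPM in the 3 perirenal ones. miR-10b stood at 5891 and 4724 CPM in the omental libraries, against 20167, 12549 and 16535 CPM in the perirenal ones.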

How the data were processed

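Small RNA was sequenced from 6 fat depots of 6 buffaloes. An RNeasy lipid tissue kit was used for extraction and a TruSeq RNA LT kit for the libraries, per the labels' protocols. The authors deposited whole-number read counts per miRNA, not normalized, and RPM values. The deposited RPM equalled the count over the library total, per 1000000, with a largest difference of 4.79e-06, so it carries no other correction. DESeq2 1.24.0 is named, without a role, in the submitters' processing notes. The aligner and the genome build were not given in the sources used here. The 1 row with a blank name held 0 counts and was left out, and 0 columns belonged to other samples.

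Samples were grouped by depot and animal from the labels, and both depots came from the same animals, so the numbers pair the samples. The mean correlation of library deviations was 0.198 within an animal and −0.0391 between animals, and 3 of 6 animals exceeded 0.1. Within an animal it ran from −0.0459 in animal 3 to 0.499 in animal 6. For 2 of 6 animals the best match of the omental library was the perirenal library of the same animal. Counts of all 36 libraries were fitted in R 4.3.3 with edgeR 4.0.16: TMM factors (0.942 to 1.26 in the 12 libraries), filterByExpr with a minimum count of 10, depot and animal as terms (25 residual degrees of freedom), robust glmQLFit and a two-sided quasi-likelihood test of omental minus perirenal. The filter left 389 miRNAs and 278 candidate loci. Benjamini-Hochberg adjustment ran over all 667, with calls under 0.05. The SE is the size of the log2 fold change over the square root of its F statistic, and the 95% intervals rest on it. Log2 CPM used a prior count of 2, and paired differences were tested by all 64 sign flips. Intervals and SEs do not cover tissue sampling, since each depot was sampled once per animal. The fit was also run on simulated counts, and the outcome of that run is not given here.

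Named were called miRNAs with at least 10 CPM over the 12 libraries and 1 direction in at least 5 of 6 animals (up to 12 in each direction), tested HOX-cluster miRNAs, the 5 most abundant miRNAs, and in each of 23 lists the 2 tested members with the smallest p, where the rule allowed up to 4. Comparison, members and lists were chosen with earlier results of these data known. Lists are precursor names and were described by counts and medians without a list test. The alternatives were no animal block, the 12 libraries alone, RLE factors, library totals, no filter, a 10 CPM mean as filter, DESeq2 1.42.0 and limma 3.58.1 on log2(RPM + 1). Further ones were the letter as a covariate, letter B alone, pairs of miRNAs with related names summed, and each animal or library left out. Leaving out OAT2, PRAT2 and PRAT6 together was chosen after seeing the data. Mature sequences were not used here.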

Additional observations from a re-analysis of the deposited data

Results flagged for a closer look

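In groups of 6 libraries, a value was marked when its gap to the next one took up a larger part of the range in CPM than Dixon's 95% limit for 6 values. Chance marks about 1 in 20 groups, but CPM values are skewed, and 31 of 100 groups of named miRNAs were marked.

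Library OAT2 was the highest omental library for miR-196b (401 CPM, next 68.6), miR-196a (34.9 CPM, next 3.44), miR-449a (962 CPM, next 328.8) and miR-210 (8.59 CPM, next 2.13). OAT1 was highest for miR-615 (1.64 CPM, next 0.664). OAT3 was highest for miR-126-5p (1604 CPM, next 1042) and miR-370 (48.9 CPM, next 13.2), and OAT4 for miR-29d-3p (13.2 CPM, next 5.63). OAT5 was highest for miR-208b (3.24 CPM, next 0.947) and let-7e (3785 CPM, next 2423), and OAT6 for miR-122 (29.8 CPM, next 8.05).

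Library PRAT6 was the highest perirenal library for miR-196b (4876 CPM, next 2777), miR-196a (369.1 CPM, next 223.03), let-7c (79706 CPM, next 43624) and miR-122 (283 CPM, next 22.5). It was also highest for miR-143 (88582 CPM, next 35263) and miR-145 (847 CPM, next 368.6), and for the muscle miRNAs miR-133b (19.3 CPM, next 1.09) and miR-208b (0.980 CPM, next 0.272). miR-31 stood there at 112 CPM (next 46.1). PRAT2 was highest for the epithelial miRNAs miR-200c (107.02 CPM, next 16.99) and miR-141 (16.3 CPM, next 4.36), for miR-192 (1513 CPM, next 904) and for miR-370 (23.6 CPM, next 4.92). In PRAT2 miR-424-3p (118 CPM, next 38.8), miR-542-5p (130.02 CPM, next 28.5), miR-30b-5p (261 CPM, next 80.3) and let-7e (5566 CPM, next 3356) were likewise the highest. PRAT3 was lowest for miR-194 (186 CPM, next 351). PRAT5 was highest for let-7f (71552 CPM, next 46639) and miR-126-5p (2030 CPM, next 844).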

How the results depend on the processing

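Over 30 alternative settings miR-196b ran from −7.04 to −4.93 and miR-196a from −6.90 to −4.78, each called in 29. miR-10b ran from −1.48 to −1.0 and was called in 24. Without the replicate block, pairing left out, 3 features were called (miR-196b −4.93, miR-196a −4.78, miR-10b −1.29), and the signs of miR-10a (0.0057), miR-26a (0.44) and miR-375 (0.92) turned. The 12 libraries alone with the replicate block left 547 features tested and gave 4 calls, of which 1 was higher in omental fat. In that fit miR-196b was at −6.72, miR-10b (−1.32, adjusted p = 0.160, edgeR) was not called and miR-26a was 0.65. The 12 libraries alone without the replicate block gave 0 called and 0 lower in edgeR, with 17 at an unadjusted p under 0.05; miR-196b (−4.94) and miR-196a (−4.78) had adjusted p-values of 0.103 and 0.0779, and miR-10a was 0.014, miR-26a 0.42 and miR-375 0.80. DESeq2 and limma were not run on the 12 libraries alone. Letter B alone gave 3 calls, 1 of them higher in omental fat. There the sign turned for miR-10a (0.77), miR-26a (1.96), let-7c (−0.22), miR-375 (0.52), miR-142-3p (−0.40), miR-146a (−0.26), miR-126-5p (−0.39), miR-199a-5p (−0.041), miR-378d (0.13), miR-424-3p (0.32), miR-542-5p (0.093), miR-221 (−0.82) and miR-29a (−0.11). Without OAT2, PRAT2 and PRAT6 it turned for miR-10a (0.10), miR-26a (0.092), miR-146a (−0.30), miR-143 (0.12), miR-145 (0.47), miR-214 (0.66) and miR-27b (0.0019). miR-26a was 0.039 at a mean of at least 10 CPM and 0.64 in limma. Summed with miR-23a, miR-23b-3p stood at −0.047, and miR-27a-3p summed with miR-27b stood at −0.18. The causes were not tested.

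With 1 animal or library left out, 2 to 4 features were called, 0 to 0 higher and 2 to 4 lower. Sign turns lay within these ranges: let-7c −0.13 to 0.53, let-7f −0.30 to 0.11, miR-10a −0.35 to 0.22, miR-126-5p −0.12 to 0.66, miR-145 −0.56 to 0.29, miR-146a −0.045 to 1.02, miR-208b −0.79 to 3.38, miR-214 −0.98 to 0.13, miR-221 −0.048 to 1.29, miR-26a −0.42 to 0.84 and miR-375 −2.28 to 0.12. None of the turned values was called in either setting. The median over all features was 0.10 with library totals and 0.07 with RPM in limma, against 0.03 with TMM factors.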

Other observations

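Features called under a single alternative lie outside the naming rule and were chosen after their values were seen. The candidate locus NC_059175.1_39359 averaged 1132 ± 780 CPM in omental and 228 ± 193.8 CPM in perirenal fat (SD, n = 6 each) and was higher in 6 of 6 animals. In edgeR it was at 2.21 ± 1.02 on the log2 scale (adjusted p = 0.825) and was called in the fit of the 12 libraries alone with the animal block (2.59, adjusted p = 0.0147). The candidate locus NC_059175.1_40102 averaged 18.5 ± 14.2 CPM in omental and 15.0 ± 16.9 CPM in perirenal fat and was called within letter B alone (2.84, adjusted p = 0.0484, edgeR). miR-135a averaged 5.62 ± 10.5 CPM in omental and 4.44 ± 2.05 CPM in perirenal fat. It was lower in 5 of 6 animals and was called in edgeR without animal 2 (−1.74, adjusted p = 0.0352).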
